A study of Mus musculus with 18 samples.

Results

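The genes described here are 10 targets of the transcription factor p53, picked by name: Cdkn1a, Mdm2, Ccng1, Sesn1, Bbc3, Bax, Phlda3, Trp53inp1, Plk2 and Pmaip1. All 10 had a row in the count table, which lists 55487 gene identifiers. They were followed in nuclear and cytoplasmic RNA of BV2, an immortalised line of mouse microglia, the resident macrophages of the brain. The cells were exposed for 0, 12 or 24 h to 10 µM oxyhemoglobin, a blood pigment set free when red cells rupture. The 6 groups were nuclear RNA at 0, 12 and 24 h and cytoplasmic RNA at 0, 12 and 24 h, with 3 libraries in each and no genetic change named in the labels. The 0 h cells were untreated, and no untreated group was harvested at 12 or 24 h, so treatment and time in culture cannot be told apart. Each deposited value is the authors' mean over the 3 libraries of a group, and the labels do not say whether those came from separate cultures. No spread between libraries could therefore be given: every interval below covers counting error only.

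p53 is kept at a low level by Mdm2, a ubiquitin ligase that marks it for destruction and whose gene p53 itself switches on, which closes a negative feedback loop. DNA damage, oxidative stress and disturbed ribosome assembly release p53 from this control. It then binds DNA sites made of a pair of short palindromic half-sites near its targets. Cdkn1a (p21) and Ccng1 act on the cell cycle, Plk2 is a stress-regulated kinase, Sesn1 restrains the growth kinase mTORC1 and takes part in antioxidant defence, and Trp53inp1 feeds back on p53 and on autophagy. Phlda3 holds back the survival kinase Akt, and Bbc3 (PUMA), Pmaip1 (Noxa) and Bax are BCL-2 family proteins that promote cell death through the mitochondria.

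p53 acts on its targets through such sites in promoters or introns, so the promoter stretches of the members that hold a match are shown first. RefSeq promoter windows on GRCm38.p6, each running from 250 bases before to 50 bases after a start, were at hand for 8 members in 12 windows. Both strands were searched for the published p53 half-site consensus, a palindrome of 10 bases. A half-site was found in 5 of these 12 windows, 1 each for 5 of the 8 members, and in 8.36% of all 32851 promoter windows. The stretches below are written 5′ to 3′ along the gene's strand, with the half-sites in capitals.

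Cdkn1a, chr17:29090892-29090951, plus strand: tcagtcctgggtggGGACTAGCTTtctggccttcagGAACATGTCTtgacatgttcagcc

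Mdm2, chr10:117710910-117710969, minus strand: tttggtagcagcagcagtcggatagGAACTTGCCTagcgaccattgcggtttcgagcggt

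Ccng1, chr11:40755437-40755496, minus strand: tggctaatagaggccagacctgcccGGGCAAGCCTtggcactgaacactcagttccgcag

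Sesn1, chr10:41887241-41887300, plus strand: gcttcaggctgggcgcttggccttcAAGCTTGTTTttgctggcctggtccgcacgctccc

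Bax, chr7:45467065-45467124, minus strand: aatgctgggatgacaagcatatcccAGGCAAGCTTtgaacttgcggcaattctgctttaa

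Among the windows searched, that of Cdkn1a was the only member window with 2 half-sites at most 13 bases apart, from base −73 to base −42 before its start. That arrangement occurred in 24 of all windows (0.07%). No half-site lay in the windows of Bbc3, Phlda3 or Plk2, which says only that these letters are missing from these windows. The NF-kB consensus occurred in the Bbc3 window and in 8.46% of all windows, and the AP-1 motif TGANTCA in no member window and in 7.81% of all. The NRF2 motif TGANNNNGC occurred in windows of Cdkn1a, Ccng1, Bax and Phlda3 and in 41.3% of all windows. A match is a description of the sequence and was not set against any level.

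What the counts could see differed among the members. Across all protein-coding genes, whether a gene was counted went with the share of its exonic bases that belong to exactly 1 annotated transcript in GENCODE M21. With no such base, 3 of 310 genes (0.968%) reached a mean count of 10 in nuclear RNA at 0 h and 1 of 310 (0.323%) in cytoplasmic RNA. With 50 to 80% of the exonic bases in 1 transcript, 3632 of 5714 genes (63.6%) did so in nuclear RNA and 3233 (56.6%) in cytoplasmic RNA. Over 80%, the percentage was again lower, at 37.3% and 33.0%. The counting rule is not given in the sources used here. Pmaip1 (3 transcripts, chromosome 18) has 47 such bases of 2732, or 1.72%, so few of its reads could be told apart by transcript. The share was 77.1% for Ccng1 (chromosome 11, 40748552 to 40755311), 71.5% for Phlda3 (chromosome 1, 135766119 to 135769136), 50.5% for Plk2 (chromosome 13, 110395046 to 110400844) and 50.1% for Bbc3 (chromosome 7, 16308393 to 16318205). It was 46.7% for Bax (chromosome 7, 45461697 to 45466898), 38.6% for Sesn1 (chromosome 10, 41809935 to 41908424) and 37.6% for Cdkn1a (chromosome 17, 29090976 to 29100727). In Mdm2 (chromosome 10, 117688875 to 117710758) the share was 38.0%, but 46 of these 1934 bases (2.38%) lie on a protein-coding transcript and the rest on retained-intron and processed transcripts. In Trp53inp1 (chromosome 4, 11156431 to 11174379) the share was 16.1%, with 10 of 1043 bases on a protein-coding transcript. Counts of Mdm2 and Trp53inp1 may thus hold few reads that are particular to their messenger RNA, and this was not tested. Bax shares 192 exonic bases and Cdkn1a 273 with another annotated gene, and reads there could be split or dropped.

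**Figure D1:**
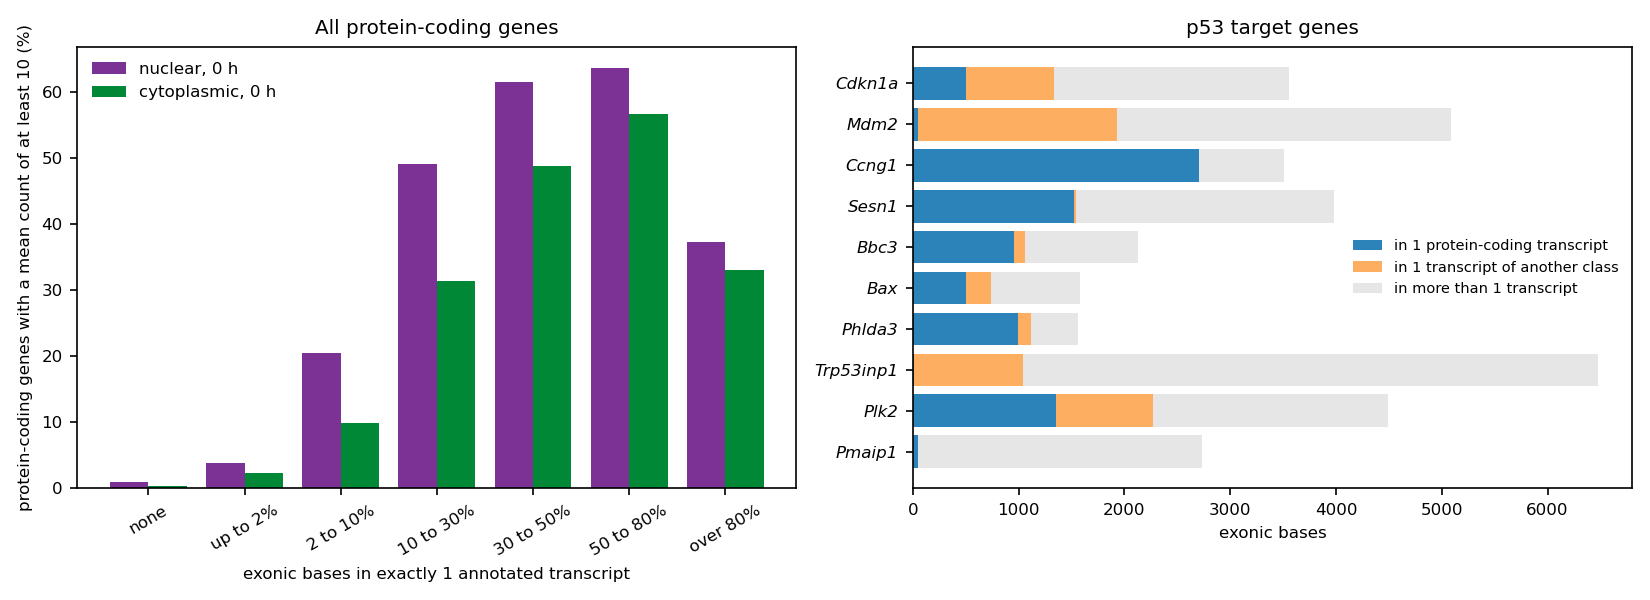
Left, the percentage of protein-coding genes with a mean count of at least 10 at 0 h (bars; nuclear left of cytoplasmic) against the share of exonic bases in exactly 1 annotated transcript. It is 0.968% (nuclear) and 0.323% (cytoplasmic) with no such base and 63.6% and 56.6% with 50 to 80%. Right, exonic bases of each p53 target gene, split into those in 1 protein-coding transcript, those in 1 transcript of another class, and those in more than 1 transcript. Pmaip1 has 47 bases in the coloured parts, and those of Mdm2 and Trp53inp1 are nearly all on transcripts of another class.

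The summed reads of a group ran between 14652566 and 16031875 for the nuclear groups and between 16537318 and 22379595 for the cytoplasmic groups. The gene ENSMUSG00000118642, which has no symbol in the files, took 16.3 to 22.1% of the nuclear counts. Malat1, Neat1 and the other RNAs of a 6-gene nuclear list summed to 52232 to 59493 counts per 1e6 counts (CPM) in nuclear RNA and to 2044 to 3618 CPM in cytoplasmic RNA. Mitochondrial and housekeeping RNAs of an 8-gene cytoplasmic list summed to 3976 to 4803 CPM in nuclear and 31901 to 47500 CPM in cytoplasmic RNA. The mitochondrial mt-Co1 carried most of the cytoplasmic sums, at 22997 to 36811 CPM. Gapdh, of the same list, went the other way, with 116 to 179 CPM in nuclear and 18.5 to 22.0 CPM in cytoplasmic RNA. Of 10 microglia and macrophage markers, 6 or 7 reached a mean count of 10 in a nuclear group and 3 or 4 in a cytoplasmic one. Their summed level was 357 to 659 CPM in nuclear and 36.9 to 56.7 CPM in cytoplasmic groups. Ptprc (CD45) made up most of each nuclear sum, at 598, 341 and 295 CPM at 0, 12 and 24 h. In nuclear RNA at these times Cd68 stood at 14.2, 23.3 and 31.1 CPM, Csf1r at 13.4, 10.1 and 7.36 CPM and Tmem119 at 1.02, 3.71 and 4.803 CPM. The defining markers Aif1 (0.440 to 1.57 CPM in nuclear RNA) and P2ry12 (at most 0.312 CPM) were near 0. The share of single-transcript bases was 30.8% in Aif1 and 9.66% in P2ry12. Of 14 markers of other brain cells, fibroblasts, muscle and erythroid cells, 4 reached a mean count of 10 in nuclear groups and 1 to 5 in cytoplasmic groups, with sums of 25.8 to 26.6 CPM and 10.4 to 36.2 CPM. The highest of these sums was that of cytoplasmic RNA at 12 h. The cardiac actin gene Actc1 stood there at 22.3 CPM, against 0 CPM at 0 h and 0.0512 CPM at 24 h. The collagen genes Col1a1 and Col3a1 stood at 2.72 and 2.42 CPM in that group, against 0 CPM each at 0 h. The part of these RNAs in the cytoplasmic 12 h results was not tested. Aqp4, Snap25 and Hba-a1 had 0 reads in every group.

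Levels below are CPM after scaling by the trimmed mean of M-values within a fraction, so they compare times within a fraction and not fractions with each other. Per kilobase of exon at 0 h, Plk2 stood highest in nuclear RNA at 60.2 CPM per kb. Bax followed at 11.1 (95% counting interval 9.82 to 12.4), Ccng1 at 9.10 (8.34 to 9.91), Mdm2 at 7.54 (6.96 to 8.15), Bbc3 at 6.23 (5.43 to 7.12) and Sesn1 at 4.07. Among these, the intervals of Bax and Ccng1 overlapped, as did those of Mdm2 and Bbc3. Cdkn1a was at 1.23 CPM per kb, Trp53inp1 at 0.357, Phlda3 at 0.195 and Pmaip1 at 0.0445. Per kilobase of single-transcript sequence the order differed: Mdm2, at 19.8 CPM per kb, came directly after Bax (23.7), and Pmaip1, at 2.58, rested on 2 reads. In cytoplasmic RNA at 0 h Plk2 (95.5 CPM per kb of exon) and Ccng1 (70.6) were far above Bbc3 (15.1), Bax (9.83), Mdm2 (3.27) and Sesn1 (2.49). Cdkn1a (0.0875) and Pmaip1 (0.0487) were lower still, and Phlda3 and Trp53inp1 had 0 reads in cytoplasmic RNA at 0 h, where 3 reads are worth 0.134 CPM per total counts and the counting interval reaches 0.164 normalised CPM.

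**Figure D2:**
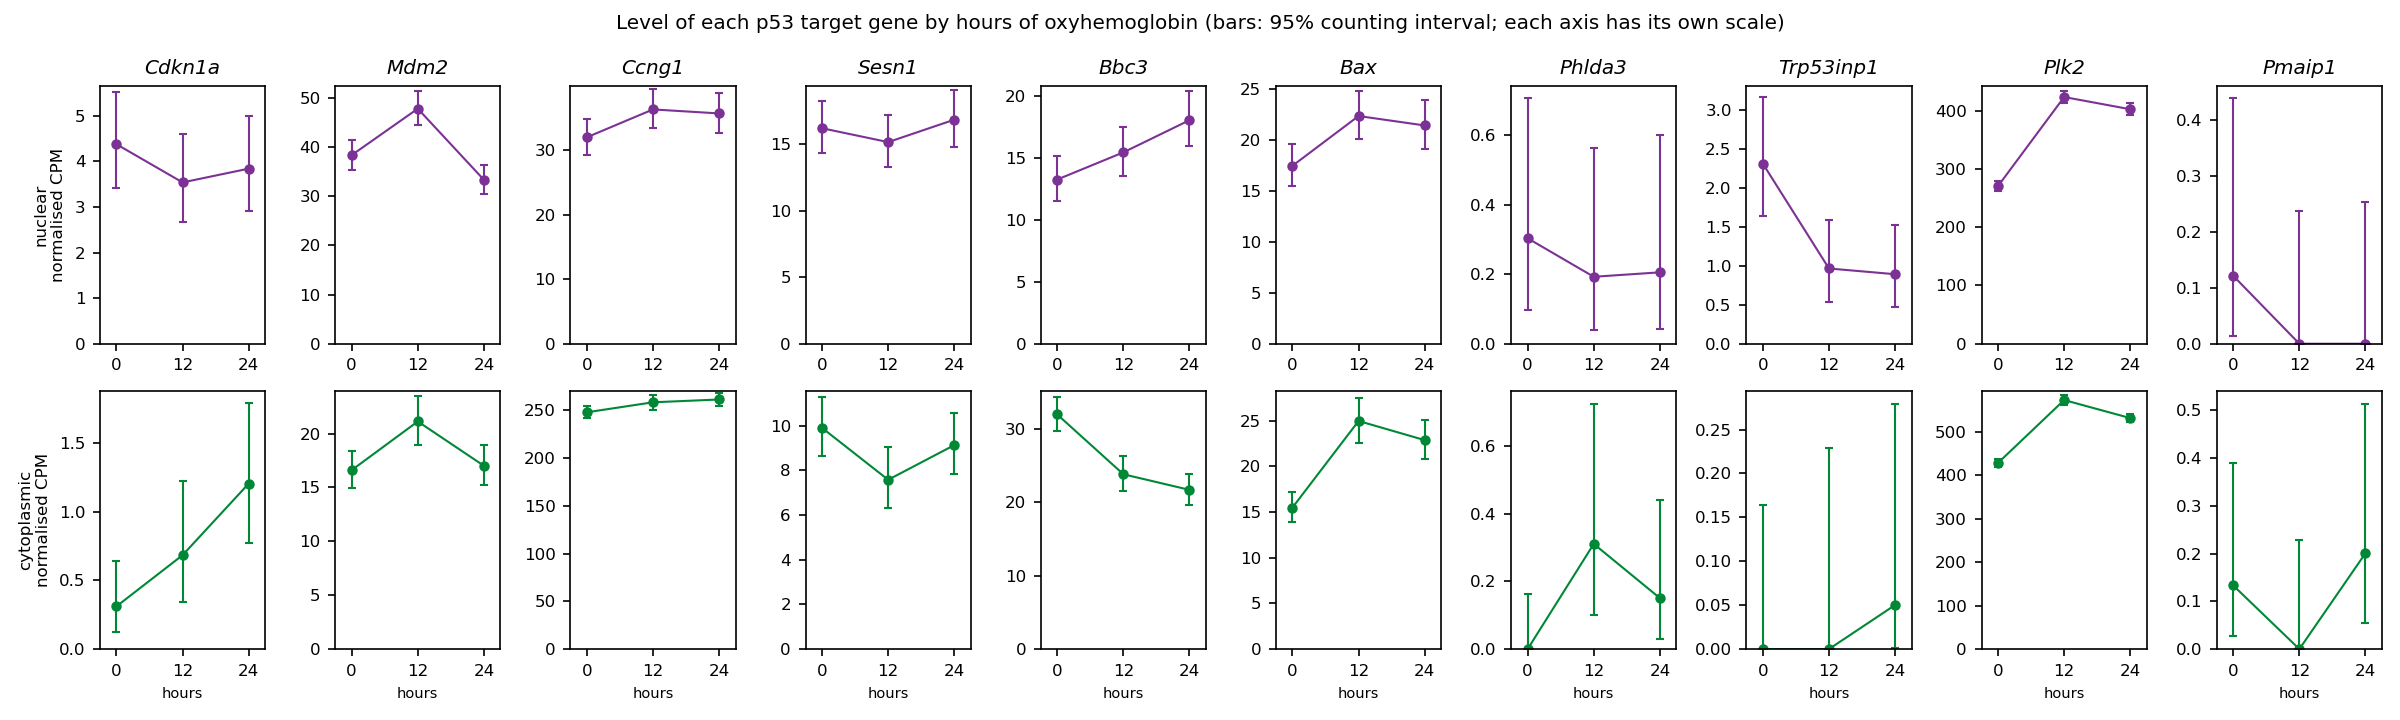
Normalised CPM (y axis, linear from 0, its own range in each panel) of each p53 target gene at 0, 12 and 24 h of oxyhemoglobin (x axis) in nuclear RNA (top row) and cytoplasmic RNA (bottom row). Points are the authors' means over 3 libraries and bars are 95% counting intervals. Plk2 is above its 0 h level at both later times in both rows, Trp53inp1 in nuclear RNA is below it, and Bbc3 is above its 0 h level in the top row and below it in the bottom row.

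After oxyhemoglobin most of the p53 targets that could be compared stayed within 2-fold of the untreated level, as did most genes in each fraction. To be called higher or lower, a gene had to differ at least 2-fold from 0 h, with a 95% counting interval of its log2 ratio that left out 0. In nuclear RNA 8 members had enough reads to be compared, meaning at least 1 group with a level worth 10 counts in a library of median depth, and in cytoplasmic RNA 6 did. At 12 h in the nucleus 0 of the 8 were called higher and 1 lower, Trp53inp1, where 14.5% of all 17295 genes compared were called in either direction. At 24 h the same count held, again with Trp53inp1 lower, against 13.7% of all genes. Trp53inp1 reached the minimum through its 0 h group alone, with mean counts of 12.7, 5 and 4.33 at 0, 12 and 24 h. A lower call was therefore nearly the only one open to it, and nothing is read from that count. Of the other 7 members, 0 were called at either time. In the cytoplasm none of the 6 was called at 12 h, against 20.6% of 11751 genes, or at 24 h, against 17.1% of 11746 genes. The cytoplasmic 12 h group is the one with the Actc1 and collagen reads given above. The median log2 ratio of the members was 0.20 at 12 h and 0.11 at 24 h in the nucleus, and 0.20 and 0.06 in the cytoplasm. For all genes compared, the median lay between −0.02 and 0.01 in these 4 comparisons.

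Plk2, the polo-like kinase induced by several stresses, had the most reads of the members and the narrowest intervals. In nuclear RNA it stood at 270.4, 423 and 402 CPM at 0, 12 and 24 h, and in cytoplasmic RNA at 429, 574 and 532 CPM. Both later times were above 0 h in both fractions, and 12 h was the highest in each. The log2 ratio was 0.65 (interval 0.59 to 0.70) at 12 h and 0.57 (0.52 to 0.63) at 24 h in the nucleus, above 84.5% and 81.5% of all genes compared. In the cytoplasm it was 0.42 (0.38 to 0.46) and 0.31 (0.27 to 0.35). Every one of these is under 2-fold. On the authors' TPM the cytoplasmic log2 ratios at 12 h and 24 h and the nuclear one at 24 h had the other sign, on a scale where the median of all genes was also below 0.

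Cdkn1a, which encodes the cyclin-dependent kinase inhibitor p21 and carries the pair of p53 half-sites shown above, had few reads, most of them nuclear. Its reads summed over 3 libraries were 72, 55 and 56 in nuclear RNA at 0, 12 and 24 h, or 4.37, 3.54 and 3.84 CPM. The nuclear log2 ratio to 0 h was −0.31 at 12 h (interval −0.84 to 0.22) and −0.19 at 24 h (−0.72 to 0.34), both intervals including 0. In cytoplasmic RNA the sums were 7, 11 and 24 reads, or 0.311, 0.683 and 1.20 CPM, below the minimum for a comparison. Without that minimum, the cytoplasmic log2 ratio was 1.14 at 12 h (−0.36 to 2.74) and 1.95 at 24 h (0.70 to 3.41), the second of which would be called. Of its 1337 single-transcript bases, 502 lie on protein-coding transcripts.

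Mdm2, the ubiquitin ligase that targets p53, was highest at 12 h in both fractions. It stood at 38.3, 47.8 and 33.3 CPM in the nucleus and at 16.6, 21.1 and 17.0 CPM in the cytoplasm at 0, 12 and 24 h. The nuclear log2 ratio to 0 h was 0.32 (interval 0.16 to 0.47) at 12 h and −0.20 (−0.38 to −0.03) at 24 h. Between 24 h and 12 h it was −0.52 (−0.69 to −0.35), above 6.95% of all genes compared, and negative under each of the other 6 scalings and units tried. In the cytoplasm the log2 ratio of Mdm2 was 0.35 (0.13 to 0.56) at 12 h, with the other sign on the authors' TPM, 0.03 (−0.18 to 0.25) at 24 h and −0.31 (−0.53 to −0.09) at 24 h against 12 h. In the comparison of 24 h with 12 h, 0 of 8 members were called in the nucleus, against 3.07% of all genes, and 0 of 6 in the cytoplasm, against 4.95%.

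Trp53inp1, a p53-induced protein that feeds back on p53 and autophagy, was called lower in the nucleus, having entered the comparison through its 0 h level alone. Its nuclear reads summed to 38 at 0 h, 15 at 12 h and 13 at 24 h, or 2.31, 0.964 and 0.891 CPM. Both treated groups lay under the untreated one, with intervals of 0.540 to 1.59 CPM at 12 h and 0.474 to 1.52 CPM at 24 h, against 1.63 to 3.17 CPM at 0 h. The log2 ratio was −1.26 (interval −2.23 to −0.36) at 12 h and −1.37 (−2.41 to −0.43) at 24 h, above 4.16% and 2.46% of all genes. It was called at 2-fold but not at 3-fold, nor on log2(TPM + 1), where this low gene gave −0.30 and −0.34. In the cytoplasm it had 0, 0 and 1 reads. As 1033 of its 1043 single-transcript bases lie on processed transcripts, which RNA these reads come from cannot be told apart.

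Among the members that promote cell death, Bax and Bbc3 lay on opposite sides of 0 h in cytoplasmic RNA. Bax, which opens the outer mitochondrial membrane, stood at 17.4, 22.3 and 21.4 CPM in the nucleus and at 15.5, 24.97 and 22.9 CPM in the cytoplasm at 0, 12 and 24 h. Its log2 ratio in the nucleus was 0.36 (interval 0.13 to 0.59) at 12 h and 0.29 (0.06 to 0.53) at 24 h, the second of which took the other sign under 3 of 6 other scalings and units. In the cytoplasm it was 0.69 (0.48 to 0.90) at 12 h and 0.56 (0.36 to 0.77) at 24 h. On the authors' TPM the cytoplasmic ratios were close to 0 and negative, as low as −0.07 at 12 h. Bbc3 (PUMA), which frees Bax from its inhibitors, stood at 13.2, 15.4 and 18.03 CPM in the nucleus and at 32.0, 23.9 and 21.7 CPM in the cytoplasm. Its nuclear log2 ratio was 0.22 (−0.05 to 0.49) at 12 h and 0.45 (0.18 to 0.71) at 24 h, with the other sign under 3 and 2 of 6 other scalings and units. Its cytoplasmic log2 ratio was −0.42 (−0.61 to −0.24) at 12 h and −0.56 (−0.73 to −0.39) at 24 h, and stayed negative under each of these 6. On the authors' TPM it passed 2-fold, at −1.18 and −1.15 on log2(TPM + 0.1), on the scale where the median of all genes was also below 0. Pmaip1 (Noxa) had 2, 0 and 0 reads in the nucleus and 3, 0 and 4 in the cytoplasm at 0, 12 and 24 h, too few to compare.

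Ccng1 and Sesn1 had small ratios at both times. Ccng1, cyclin G1, stood at 32.0, 36.3 and 35.6 CPM in the nucleus and at 248, 258 and 261 CPM in the cytoplasm at 0, 12 and 24 h. Its log2 ratio was 0.18 (interval 0.01 to 0.36) and 0.16 (−0.02 to 0.34) at 12 and 24 h in the nucleus and 0.06 (0.00 to 0.12) and 0.08 (0.02 to 0.13) in the cytoplasm, and the sign of each depended on the scaling. Sesn1, a sestrin, stood at 16.2, 15.2 and 16.9 CPM in the nucleus and 9.90, 7.58 and 9.13 CPM in the cytoplasm. Its log2 ratio was −0.10 (−0.35 to 0.16) at 12 h and 0.06 (−0.20 to 0.31) at 24 h in the nucleus. In the cytoplasm it was −0.39 (−0.72 to −0.06) at 12 h and −0.12 (−0.41 to 0.17) at 24 h. Phlda3, the Akt antagonist, had 5, 3 and 3 reads in the nucleus and 0, 5 and 3 in the cytoplasm. Without the minimum, 5 reads at 12 h against 0 at 0 h gave Phlda3 a cytoplasmic log2 ratio of 1.22, with 0 h set to 3 reads. Its interval ran from 0.36 upward.

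**Figure D3:**
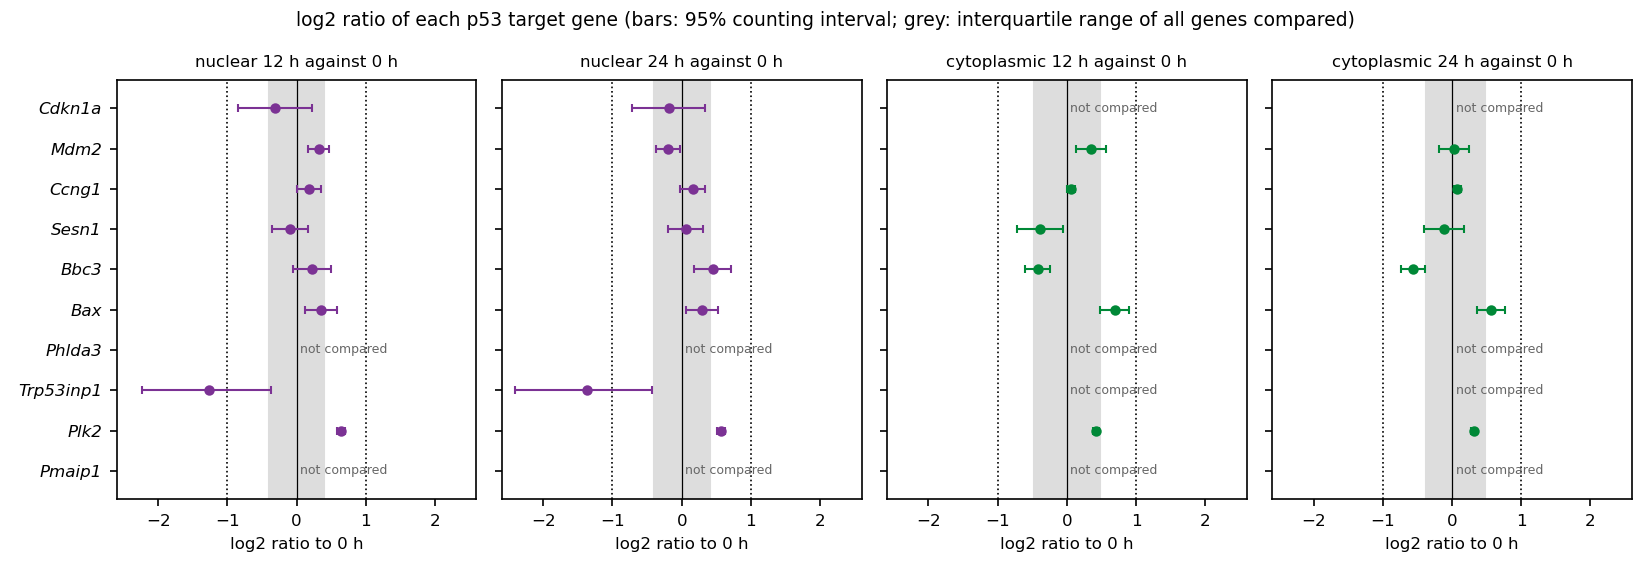
log2 ratio to 0 h (x axis) of each p53 target gene (rows) at 12 and 24 h in nuclear (first 2 panels) and cytoplasmic RNA (last 2 panels). Points are ratios of the authors' group means, bars 95% counting intervals, dotted lines 2-fold, and the grey band the interquartile range of all genes compared. Trp53inp1 in the nucleus, at −1.26 and −1.37, is the only point beyond a dotted line, and Plk2 and Bax lie right of 0 in all 4 panels.

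The other question of the design is where each RNA was found. For this all 6 group means were scaled together, and a log2 ratio of nuclear over cytoplasmic level was taken at each time. It is a ratio of relative levels and not of amounts per cell, and more RNA per fraction and a larger share of cells contributing it cannot be told apart. The members spread widely. At 0 h 2 of 8 were called higher in the nucleus (Trp53inp1 and Cdkn1a) and 4 lower (Ccng1, Bbc3, Plk2 and Bax), where 80.3% of all genes compared were called in either direction. At 12 h the counts were 2 and 4, against 75.5% of all genes, and at 24 h 1 and 4, against 74.7%. Trp53inp1 and Cdkn1a reached the minimum in nuclear groups alone, so nothing is read from their calls. The balance turned with the scaling. Per total counts 3 members were called higher and 2 lower at 0 h, 4 and 1 at 12 h, and 2 and 1 at 24 h, and per total counts without ENSMUSG00000118642 it was 4 and 1 at each time. At 12 h it was 4 and 1 on log2(TPM + 0.1) too, and 0 and 4 with median-of-ratios size factors. Of all genes called at 0 h, 59.9% were higher in the nucleus, and 78.9% per total counts. The median log2 ratio of all genes was 0.83 at 0 h, 0.74 at 12 h and 0.67 at 24 h under this scaling. Per total counts it was 2.196, 1.91 and 1.70, so the order of the members carries more than the sign. The order may also follow which transcripts could be counted, and this was not tested. Of the single-transcript bases, 100% lie on protein-coding transcripts in Ccng1, 99.0% in Sesn1, 89.7% in Bbc3 and 67.5% in Bax. The share was 59.6% in Plk2, 37.5% in Cdkn1a, 2.38% in Mdm2 and 0.959% in Trp53inp1.

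Ccng1 was the most cytoplasmic member at every time. Its log2 ratio of nuclear over cytoplasmic level was −4.16 (interval −4.29 to −4.03) at 0 h, −4.00 at 12 h and −4.07 at 24 h, lower than in all but 1.45%, 0.777% and 0.402% of the genes compared. Bbc3 came next at 0 h with −2.48, then Plk2 with −1.87 and Bax with −1.04 (−1.27 to −0.81). Bax took the other sign at 0 h per total counts (0.33), and at all 3 times per total counts without ENSMUSG00000118642. Sesn1 (−0.49) and Mdm2 (0.00) lay nearer the middle of all genes, above 37.4% and 42.1% of them, and their signs also depended on the scaling. Those of Ccng1, Bbc3, Plk2, Cdkn1a and Trp53inp1 held under every scaling and unit tried. Cdkn1a stood at 2.61 (1.49 to 3.97) at 0 h. Trp53inp1 had 38 nuclear and 0 cytoplasmic reads at 0 h. With the 0 set to 3 reads it was 7.51-fold higher in the nucleus, a log2 ratio of 2.91 (interval 2.54 upward). At 12 h Cdkn1a, with 55 nuclear and 11 cytoplasmic reads, stood at 1.21 (0.26 to 2.29). Trp53inp1, with 15 and 0 reads, also stood at 1.21 with the 0 set to 3 reads (interval 0.73 upward). With median-of-ratios size factors both were at 0.98, under 2-fold. At 24 h Trp53inp1 was the member called higher, at 2.96 (0.22 to 8.37), from 13 nuclear reads and 1 cytoplasmic read.

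The nuclear over cytoplasmic ratio itself was called different between times for 2 members, and neither call is firm. Trp53inp1 could not be followed here for lack of cytoplasmic reads. At 24 h against 0 h 1 of 7 members was called higher, Bbc3, and 1 lower, Cdkn1a, against 15.6% of all 16813 genes. At 12 h none of the 7 was called, against 14.9%. The log2 ratio of Bbc3 was −2.48, −1.79 and −1.46 at 0, 12 and 24 h, a difference of 0.69 (0.37 to 1.00) at 12 h and 1.02 (0.70 to 1.33) at 24 h from 0 h. The 24 h difference was above that of 91.5% of all genes and sat at the 2-fold line: it was 0.68 per total counts and 0.94 on log2(TPM + 1), under the threshold in both. The log2 ratio of Cdkn1a was 2.61, 1.21 and 0.48, a difference of −1.40 (−2.86 to 0.06) at 12 h and −2.13 (−3.45 to −0.82) at 24 h, below that of all but 3.69% of genes. It rests on 7, 11 and 24 cytoplasmic reads and was −0.65 on log2(TPM + 1). Cdkn1a reached the minimum in nuclear groups alone, so nothing is read from this call. For Mdm2, Ccng1, Sesn1, Bax and Plk2 the difference lay between −0.29 and 0.33 at both times.

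**Figure D4:**
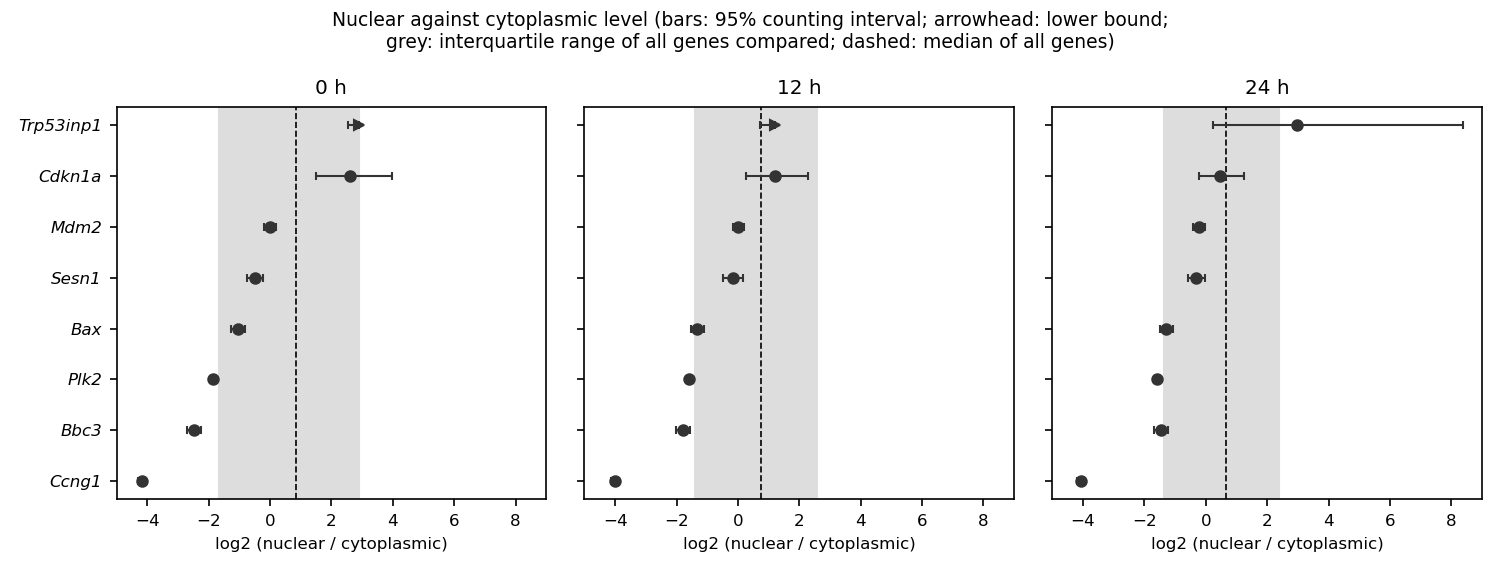
log2 ratio of nuclear over cytoplasmic level (x axis) of the 8 p53 target genes with enough reads (rows) at 0, 12 and 24 h. Points are ratios of the authors' group means and bars 95% counting intervals. Arrowheads, labelled lower bound, are ratios with 0 cytoplasmic reads set to 3, whose bars reach lower. The grey band is the interquartile range of all genes and the dashed line their median. Ccng1 stays near −4 at all 3 times, Bbc3 moves right from panel to panel (−2.48, −1.79, −1.46) and Cdkn1a left (2.61, 1.21, 0.48).

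The genes around the members were followed through 6 lists of p53 pathway genes. These lists were chosen with earlier results of these data known, and some genes, such as Phlda1 and Plk1, are in more than 1. The shares called are therefore descriptions of each list below, and no difference from the share of all genes is read as a result. Taken once each, 116 of these genes were compared in the nucleus, of which 13 were called higher and 7 lower at 12 h and 12 higher and 4 lower at 24 h (17.2% and 13.8% called, against 14.5% and 13.7% of all genes). In the cytoplasm 105 were compared, with 9 higher and 11 lower at 12 h and 9 higher and 9 lower at 24 h (19.0% and 17.1%, against 20.6% and 17.1%). Their median log2 ratios were −0.03 and 0.11 in the nucleus and −0.21 and −0.14 in the cytoplasm, beside all-gene medians between −0.02 and 0.01. Some calls of the genes named below were under 2-fold per total counts. In the nucleus these included Cdkn2a and Hipk2 at 24 h, and Plk1, Abcb1a, Ccne1 and E2f2 at 12 h. Sirt1 at 12 h was another, in the cytoplasm.

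Of 19 genes for p53 and its regulators compared in the nucleus, 1 was called higher at 12 h and 2 at 24 h, and none lower. These are 5.26% and 10.5%, against 14.5% and 13.7% of all genes. Trp53, the p53 gene itself, stood at 40.5, 48.3 and 38.6 CPM in the nucleus and at 15.6, 9.19 and 9.58 CPM in the cytoplasm at 0, 12 and 24 h. Its nuclear log2 ratio was 0.25 (interval 0.10 to 0.41) at 12 h and −0.07 (−0.23 to 0.09) at 24 h, and its cytoplasmic one −0.77 (−1.05 to −0.48) and −0.71 (−0.97 to −0.45). The nuclear over cytoplasmic ratio of Trp53 was called higher at 12 h than at 0 h, by 1.06 (0.74 to 1.37) on the log2 scale. Of all genes, 14.9% were called in that comparison. Per total counts Trp53 went from 45.5 to 47.2 CPM in the nucleus and from 15.7 to 8.95 CPM in the cytoplasm. The change of its ratio was under 2-fold there. The cytoplasmic 12 h group is the one with the Actc1 and collagen reads. All 2098 single-transcript bases of Trp53 lie on transcripts that are not annotated as protein-coding. Mdm4, the partner of Mdm2 that masks p53, had nuclear log2 ratios of −0.01 and 0.05 and cytoplasmic ones of 0.30 and 0.13. Hipk2, a kinase that phosphorylates p53, was called higher in the nucleus (78.2, 190, 171 CPM at 0, 12 and 24 h; log2 ratios 1.28 and 1.13). Cdkn2a, whose product ARF blocks Mdm2, was at 18.8, 33.1 and 43.5 CPM in the nucleus and was called higher at 24 h (log2 ratio 1.21, interval 1.01 to 1.41). It was under 2-fold at 24 h per total counts (21.1 to 39.5 CPM) and on the authors' TPM (23.9 to 36.0). Rpl5 and Rpl11, ribosomal proteins that bind Mdm2 when ribosome assembly is disturbed, were called lower in the cytoplasm at 24 h (log2 ratios −1.03 and −1.13). The deacetylase gene Sirt1 was called higher there at 12 h (1.04). In all, 18 genes of this list were compared in the cytoplasm, with 1 higher at 12 h, and 1 higher and 2 lower at 24 h. The shares called were 5.56% and 16.7%, against 20.6% and 17.1% of all genes.

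Of 41 other p53 targets compared in the nucleus, 7 were called higher and 3 lower at both 12 and 24 h, or 24.4% at each time, against 14.5% and 13.7% of all genes. In the cytoplasm 37 were compared, with 4 higher and 6 lower at both times, or 27.03%, against 20.6% and 17.1% of all genes. As the list was chosen with earlier results of these data known, nothing is read from these shares. Phlda1, a paralog of Phlda3, was called higher in both fractions. It stood at 4.25, 32.4 and 26.4 CPM in the nucleus and at 12.6, 68.7 and 61.7 CPM in the cytoplasm, with log2 ratios of 2.93 (interval 2.57 to 3.31) and 2.63 in the nucleus and 2.45 and 2.29 in the cytoplasm. Thbs1, the matrix protein thrombospondin, was called higher in the nucleus (1.33 at both times), and so was Abcb1a, a drug efflux pump (1.07 and 1.61). Besides Phlda1, the 10 paralogs of the members compared in the nucleus included Ccng2, the paralog of Ccng1, which was called lower there (20.2, 7.27 and 7.34 CPM; log2 ratios −1.47 and −1.46). They also included the mitotic kinase gene Plk1, which was called higher (1.01 and 1.45). Of the 10 paralogs, 2 were higher and 1 lower at each time in the nucleus, or 30%, against 14.5% and 13.7% of all genes. In the cytoplasm 9 were compared, with 1 higher at 12 h, and 1 higher and 1 lower at 24 h. The shares called there were 11.1% and 22.2%, against 20.6% and 17.1% of all genes.

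The other BCL-2 family genes included larger ratios than Bax or Bbc3. Of 11 compared in the cytoplasm, 4 were called higher and 1 lower at 12 h, and 3 higher and none lower at 24 h. These are 45.5% and 27.3%, against 20.6% and 17.1% of all genes. Bcl2l1, which encodes the survival protein BCL-XL, stood at 10.6, 25.2 and 23.1 CPM in the cytoplasm (log2 ratios 1.25 and 1.13). Bmf, a BH3-only death protein, was called lower at 12 h in the nucleus (−1.16) and in the cytoplasm (−1.62). The survival genes Bcl2a1b and Bcl2a1d were called higher at 12 h in both fractions, at 2.27 and 2.02 in the nucleus and 3.53 and 1.45 in the cytoplasm. These are near-identical copies among which reads may be split, so their values are uncertain. Of 12 compared in the nucleus, 2 were higher and 1 lower at 12 h and 1 was higher at 24 h. The shares called were 25% and 8.33%, against 14.5% and 13.7% of all genes.

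Downstream of p21, 16 partners and G1/S genes were compared in the nucleus, with 2 called higher and 1 lower at 12 h and 1 higher at 24 h. These are 18.75% and 6.25%, against 14.5% and 13.7% of all genes. Ccne1, cyclin E1, the cyclin whose kinase p21 inhibits, stood at 13.6, 31.0 and 39.5 CPM in the nucleus (log2 ratios 1.19 and 1.54) and reached 1.29 in the cytoplasm at 24 h. E2f2 was called higher at 12 h (1.10), and Rbl2 lower (−1.28), in the nucleus. Rb1, the retinoblastoma gene, was called lower in the cytoplasm at 12 h (−1.25). In the cytoplasm 14 of these genes were compared, with 1 lower at 12 h and 1 higher at 24 h. The share called was 7.14% at each time, against 20.6% and 17.1% of all genes. Of 24 genes known to be lowered through p21 and the DREAM repressor complex, 1 was higher and 1 lower in the nucleus at 12 h. At 24 h 1 was higher, so that 8.33% and 4.17% were called, against 14.5% and 13.7% of all genes. Of 22 compared in the cytoplasm, 3 were lower at 12 h and none was called at 24 h, with median log2 ratios of −0.43 and −0.13. The share called at 12 h was 13.6%, against 20.6% of all genes. The gene called higher in the nucleus at both times was Plk1, whose values stand above among the paralogs. Cdk1 was called lower at 12 h in the cytoplasm (−1.09), and Cdc25c lower at 12 h in the nucleus (−1.04).

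**Figure D5:**
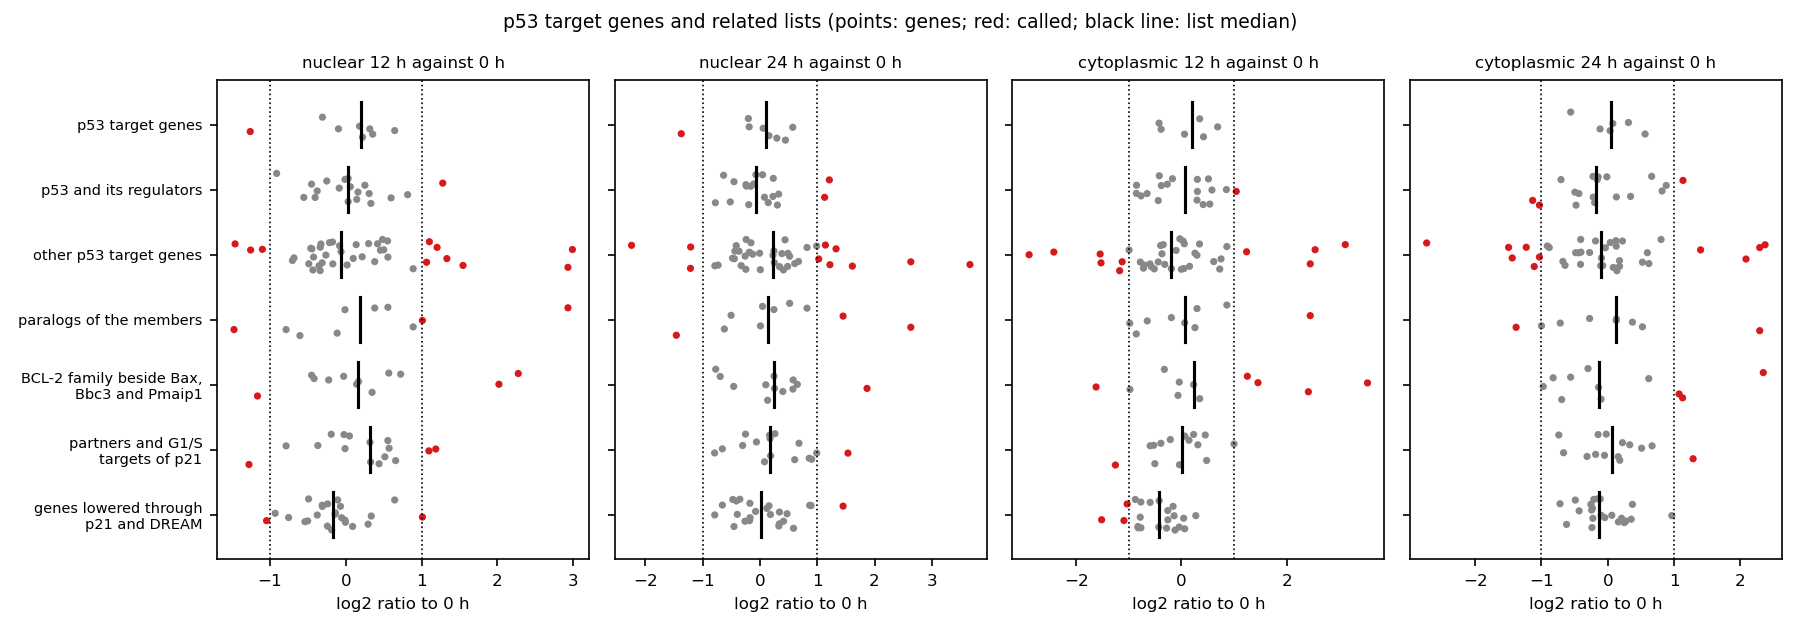
log2 ratio to 0 h (x axis) at 12 and 24 h in nuclear (first 2 panels) and cytoplasmic RNA (last 2 panels) for the p53 target genes (top row) and 6 related lists. Each point is a gene, red where called higher or lower, the black line is the list's median, and dotted lines mark 2-fold. The 8 target genes compared in the nucleus hold 1 red point, Trp53inp1, in each panel, and the 6 compared in the cytoplasm hold none. The 41 other targets compared in the nucleus hold 10 in each panel. Of all genes in the nucleus, 14.5% and 13.7% were called at 12 and 24 h.

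Likeness to a member was measured as the distance between log2 levels over the 6 groups, each gene centred on its own mean, among 6887 genes with at least 5 CPM in both fractions. The nearest to Plk2 were Fbrsl1 (0.0986), Sik3 (0.125) and Ctdp1 (0.147). The nearest to Mdm2 were Tarbp2 (0.198), Hif1a (0.206) and A930007I19Rik (0.213). Those nearest to Cdkn1a, namely Epb41l1 (0.710), Ranbp9 (0.741) and Eif4e2 (0.766), were much farther away. Cdkn1a itself was under 5 CPM in every group, and its cytoplasmic levels rest on 7, 11 and 24 reads. The part of counting error in these distances was not tested, so no unusual profile is read from them. None of the genes named as nearest is in the p53 lists.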

How the data were processed

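Nuclear and cytoplasmic RNA of BV2 cells was sequenced in 18 libraries, 3 in each of 6 groups. The submitters' processing notes name HISAT2 2.2.0, featureCounts and the build GRCm38. Strand setting, annotation release and counting rule are not given in those sources. In the deposited count table there is 1 column per group. Every value times 3 was whole within 0.001, while as deposited 28.1 to 34.9% per column were fractional, so each was read as an expected count, the authors' mean over 3 libraries. The deposited TPM values follow from those means and a gene length that equalled the summed length of all annotated transcripts, within 0.1%, for 8684 of 8879 genes (97.8%). This length enters the authors' TPM but not the ratios of counts. Deposited per-sample columns left unused numbered 0.

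Python 3.11.15 was used with scipy 1.17.1, pandas 2.3.3, numpy 2.4.6 and, for plots, matplotlib 3.10.9. Scaling of the means was by TMM, a trimmed mean of log ratios (30% of log ratios and 5% of mean expression trimmed at each end), within each fraction for time comparisons and over all 6 groups for nuclear against cytoplasmic ratios. A gene was compared where a group reached a level worth 10 counts in a library of median depth, which is 1.89 CPM in nuclear, 1.54 in cytoplasmic and 1.84 in all groups. Intervals at 95% rest on reads summed over 3 libraries. They are exact Clopper-Pearson for a ratio, exact Poisson for a level, and by normal approximation for a difference of nuclear over cytoplasmic ratios. They cover counting error only. A group with 0 reads was set to 3 reads. With group means only, no test across libraries could be run, and the planned count test (edgeR) was not used.

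Symbols and transcripts were taken from GENCODE M21, which held 55141 of the 55487 identifiers, and promoters from RefSeq on GRCm38.p6. Trp53inp1 and Pmaip1 had no promoter entry. The members and lists were chosen with earlier results of these data known. All 10 members are named. From each other list and fraction, genes called at 12 or 24 h with a mean of at least 5 CPM are named, at most the 4 largest by absolute log2 ratio, and Trp53 and Mdm4 always. A gene that this rule names is not reported here. The settings tried besides these were total counts, total counts without the largest gene, median-of-ratios size factors, TMM over 6 groups, no minimum, 1.5-fold and 3-fold thresholds, and log2 of the authors' TPM plus 1 or plus 0.1.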

Additional observations from a re-analysis of the deposited data

How the results depend on the processing

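The call of Trp53inp1 as lower in the nucleus was made under every scaling tried. It was lost at 3-fold and on log2(TPM + 1), which left 0 members called at 12 and 24 h. This gene entered the comparison through its 0 h group alone, which no scaling changes, so nothing is read from its call. Of 17295 genes, 493 were higher and 367 lower at 3-fold at 12 h, and 519 and 289 at 24 h. On log2(TPM + 1) it was 524 and 1131 at 12 h, and 344 and 2337 at 24 h. At 1.5-fold 2 members were called at 12 h, where 2890 of 17295 genes were higher and 2703 lower. In the cytoplasm, where 0 were called, 1 was called at each time without the minimum and 1 at 12 h at 1.5-fold. On log2(TPM + 1) it was 1 at each time, and on log2(TPM + 0.1) 2 at 12 h and 1 at 24 h. Of all genes there at 12 h, 2500 of 20882 were higher and 1483 lower without the minimum. Of 11751 genes at 12 h, 2361 were higher and 2246 lower at 1.5-fold, 411 and 2245 on log2(TPM + 1), and 567 and 3867 on log2(TPM + 0.1). At 24 h it was 2696 and 1028 of 21463 without the minimum. On log2(TPM + 1) it was 376 and 1364 of 11751 at 24 h, and on log2(TPM + 0.1) 559 and 2381. Between fractions, 2 members were called higher and 4 lower at 0 h and at 12 h, and 1 and 4 at 24 h. Per total counts this became 3 and 2, 4 and 1, and 2 and 1, and without the largest gene 4 and 1 at each time. Of all genes without the largest gene, 11453 were higher and 2276 lower of 17865 at 0 h. At 12 h it was 11203 and 1997 of 17893, and at 24 h 11081 and 1899 of 17892. At 12 h the members were also 4 and 1 on log2(TPM + 0.1), and 0 and 4 with median-of-ratios factors. All genes were 10526 and 2483 of 17902 on the first, and 7585 and 5889 of 17893 on the second. In place of the 6 members called at 12 h, the number was 3 at 3-fold and 1 on log2(TPM + 1). All genes were 6963 higher and 4052 lower of 17893 at 3-fold, and 8174 and 2208 of 17902 on log2(TPM + 1). In place of 5 members at 24 h, the number was 3 per total counts, 3 at 3-fold, 1 on log2(TPM + 1) and 2 on log2(TPM + 0.1). All genes were 6676 higher and 3890 lower of 17892 at 3-fold. They were 6895 and 3071 of 17902 on log2(TPM + 1), and 9450 and 3437 on log2(TPM + 0.1). For the change of the nuclear over cytoplasmic ratio at 12 h, 0 members were called. This became 1 per total counts, 1 at 1.5-fold, 1 on log2(TPM + 1) and 2 on log2(TPM + 0.1). All genes were 3230 higher and 1771 lower of 16544 at 1.5-fold. They were 2431 and 873 of 17902 on log2(TPM + 1), and 4330 and 1581 on log2(TPM + 0.1). For that change at 24 h 2 members were called, which became 1 per total counts, 1 at 3-fold and 0 on log2(TPM + 1). All genes were 248 higher and 861 lower of 16813 at 3-fold, and 592 and 1865 of 17902 on log2(TPM + 1). Of all genes per total counts, 10935 of 17865 were higher in the nucleus and 2923 lower at 0 h. At 12 h it was 10655 and 2616 of 17893, and at 24 h 10345 and 2766 of 17892. For the change of the ratio it was 700 higher and 1687 lower of 16544 at 12 h, and 317 and 2816 of 16813 at 24 h. Nothing about the members is read from the counts under other settings. The nuclear over cytoplasmic log2 ratio of Bax changed sign at 0 h per total counts (0.33), and per total counts without the largest gene at 0 h (0.62), 12 h (0.10) and 24 h (0.10). The cause was not tested.

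Per total counts the median log2 ratio of all genes moved to −0.21 at 12 h and −0.32 at 24 h in the nucleus, and 31.9% and 27.5% of called genes were higher, in place of 52.6% and 58.1%. On log2(TPM + 1) it moved to −0.51 and −0.40 in the cytoplasm, with 15.5% and 21.6% of called genes higher in place of 58.0% and 66.2%. Of the members' log2 ratios, 63 of 80 stayed inside their own counting interval with median-of-ratios factors, 41 of 42 with TMM over 6 groups, 40 of 80 per total counts and 20 of 80 on log2(TPM + 1). The number called among the pathway lists against 0 h stayed within 1.5 times per total counts and with median-of-ratios factors. It was not counted under the other settings.

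No paired analysis was possible because the deposited columns are group means and carry no replicate number. Leaving out a replicate, the replicate block and DESeq2 were not run for the same reason. Depth limits Phlda3, Pmaip1, Trp53inp1 and cytoplasmic Cdkn1a most: a group of these with 0 reads has a 95% counting interval that reaches 0.164 to 0.253 normalised CPM.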
